A study of Mus musculus with 12 samples.

Results

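Lymphocytes read the surface of other cells through adhesion molecules and through ligands that raise or lower their activity. The 8 genes described here encode such surface proteins, namely the adhesion ligands Icam1 and Vcam1, the B7 family ligands Cd274, Cd276 and Cd80, the poliovirus receptor and nectin family members Pvr and Nectin2, and Cd47, a ligand of the inhibitory receptor SIRP-alpha on macrophages. They were taken by gene symbol from a table of 55487 genes, and all 8 were found there under a single identifier each. All 8 had levels high enough to be tested, Icam1 only through libraries of treated cells. The RNA came from a primary fibroblast line grown from mammary fat of a B6 mouse, so every library goes back to 1 line. There were 12 libraries, 3 in each of 4 groups. One group was exposed once, for 24 h, to 100 nM of doxorubicin, a topoisomerase poison that breaks DNA, and its RNA was collected on day 7. Another was exposed 3 times, for 2 h each, to 750 uM hydrogen peroxide, an oxidant, with recovery for 48 h, and its RNA was collected on day 6. The series describes both treatments as inducers of senescence, a lasting arrest of the cell cycle. Each treatment has a vehicle group that received water in place of the agent and was split as it grew, so passaging as well as treatment sets vehicle cells apart from treated cells. Whether the replicates came from separate cultures is not stated, and p-values then measure only the spread between these libraries, which may be technical.

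As background, ICAM-1 binds the leukocyte integrin LFA-1 and VCAM-1 binds the integrin VLA-4, and together they let lymphocytes attach to and cross tissue. CD80 binds CD28, which costimulates T cells, and CTLA-4, which restrains them, while PD-L1, the product of Cd274, engages the inhibitory receptor PD-1. PVR and nectin-2 are bound by the activating receptor DNAM-1 and by inhibitory partners such as TIGIT on T and natural killer cells, and CD47 signals to macrophages not to engulf the cell that bears it. Inflammatory cytokines and interferons are known inducers of several of these genes in fibroblasts and endothelium.

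The libraries held 17.3 to 37.6 M reads, estimated from the deposited values, which are read counts scaled to the same total in each library (CPM). All 12 fibroblast markers were expressed, with a summed level of 8914 to 17277 CPM per library. Of 18 leukocyte markers, 13 stayed below 1 CPM in every library, and Ptprc, the pan-leukocyte gene, never exceeded 0.0927 CPM. Other leukocyte markers were expressed, as Lyz2 averaged 12.3 CPM after doxorubicin and 13.3 after peroxide, against 2.80 and 1.81 in their vehicle groups. Over the 4 groups Csf1r averaged 8.34 to 13.8 CPM and Cd68 1.30 to 5.31 CPM. Libraries of a group correlated at r = 0.973 or more across genes. Doxorubicin replicate 1, doxorubicin vehicle replicate 3 and peroxide replicate 2 stood apart from their groups along the second principal component (23.7% of the variance), and each count over the 8 genes was repeated without them. In bulk RNA, fewer cells of a type and less RNA per cell cannot be told apart.

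Of the 8 ligand genes, 6 were higher after doxorubicin than in its vehicle group and 0 were lower, and 7 were higher and 0 lower after peroxide. Icam1 and Cd80 went from at most 1.71 CPM in any vehicle library to between 6.21 and 31.8 CPM in the treated libraries. Mean CPM of Cd274 was 5.60 times its vehicle with doxorubicin and 5.17 times with peroxide, that of Nectin2 3.14 times with doxorubicin, and the other ratios lay between 0.970 and 1.87. Genes were called at an adjusted p below 0.05 in limma, a linear model fitted to log2(CPM + 1) of 13280 genes, with Benjamini-Hochberg adjustment over all of them. Over all tested genes, 22.1% were called higher and 27.8% lower after doxorubicin, and 27.3% higher and 23.4% lower after peroxide. The median log2 difference of the 8 genes was 0.88 with doxorubicin and 0.77 with peroxide, against -0.03 and -0.01 over all tested genes. Without the 3 libraries that stood apart, 6 were higher after each treatment and 0 lower. Genes were tested if they reached 1 CPM in 3 or more libraries, which Icam1 did only in treated ones. Its place in these counts thus depended on its being high there. Levels in every library are drawn in the plot by gene and group.

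**Figure D1:**
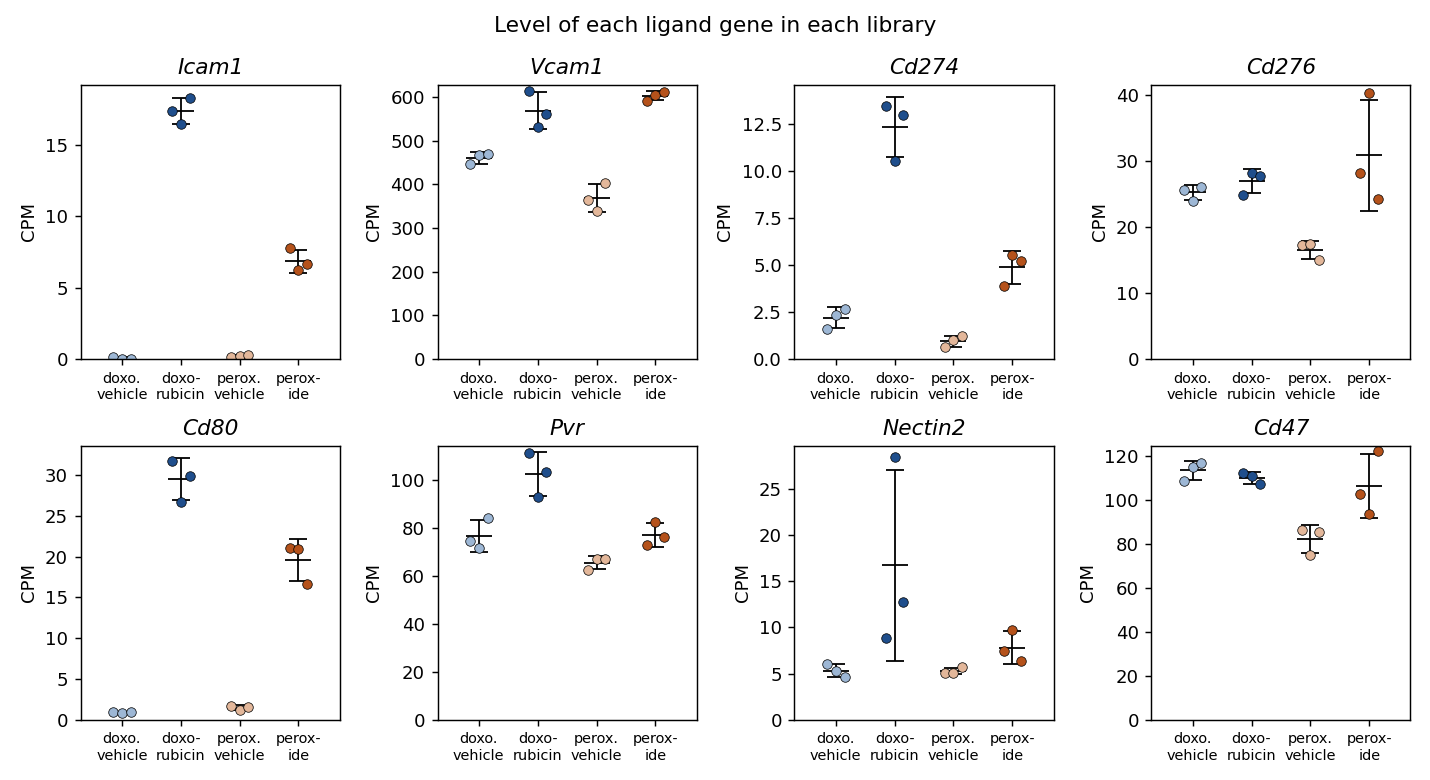
Level of each of the 8 ligand genes (vertical axis, CPM, from 0, with its own scale in each panel) in the 4 groups. Points are the 3 libraries of a group, the horizontal line is the mean and the bars are 1 SD. Treated libraries lie above all vehicle libraries for Icam1, Cd80, Cd274, Vcam1 and, by a small margin, Nectin2. For Cd276 and Cd47 treated libraries overlap the doxorubicin vehicle group, and the peroxide vehicle group lies below the other 3 groups.

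Icam1 (ENSMUSG00000037405, protein-coding, chromosome 9, 21015985 to 21028817, plus strand, mm10) was nearly silent in untreated fibroblasts. It was at 0.148, 0 and 0 CPM in the doxorubicin vehicle libraries, 3 estimated reads in all, and at 17.4, 16.5 and 18.3 CPM after doxorubicin. In the peroxide experiment it was at 0.171, 0.238 and 0.289 CPM in the vehicle libraries, 13 estimated reads in all, and at 7.75, 6.21 and 6.63 CPM after peroxide. The 6 treated libraries all lay far above the 6 vehicle libraries, and the doxorubicin libraries all lay above the peroxide libraries. The summed reads per depth were 357 times those of the vehicle group with doxorubicin (95% exact counting interval 122 to 1733) and 29.2 times with peroxide (16.9 to 55.1), intervals that cover counting error only. On the log2(CPM + 1) scale, which understates changes from such low levels, Icam1 rose by 4.13 ± 0.11 with doxorubicin (SE, adjusted p = 8.06e-10 in limma) and by 2.67 ± 0.11 with peroxide (adjusted p = 1.75e-08). These fitted values depend on the pseudocount, and with 0.1 in place of 1 CPM they were 7.01 and 4.398. Of its 50-base windows 13.1% also occur in other transcripts, chiefly the antisense gene model Gm47079, which overlaps its exons. Whether counting used strand is not given in the sources used here, and Gm47079 itself never exceeded 0.153 CPM.

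Vcam1 (ENSMUSG00000027962, protein-coding, chromosome 3, 116109949 to 116129688, minus strand) was by contrast abundant in all 4 groups. It was at 446, 467 and 469 CPM in the doxorubicin vehicle libraries and at 614, 532 and 561 CPM after doxorubicin. In the peroxide vehicle libraries it was at 364, 339 and 403 CPM, and after peroxide at 591, 605 and 613 CPM. Treated and vehicle libraries did not overlap in either experiment, and the treated libraries of the experiments overlapped each other. Vcam1 rose by 0.30 ± 0.07 log2 units with doxorubicin (SE, adjusted p = 0.00564 in limma) and by 0.71 ± 0.07 with peroxide (adjusted p = 1.27e-05). With upper-quartile scaling of the libraries the doxorubicin value was 0.19 (adjusted p = 0.25), and the call was lost.

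The bases before the start of Icam1, Cd80 and Cd274 are shown because these genes had the largest increases with both treatments. They are the 250 bases before the RefSeq transcription start on GRCm38.p6, 5′ to 3′ along the gene, with motif matches in capitals. Icam1 lies at chr9:21015690-21015939 (plus strand), Cd80 at chr16:38458683-38458932 (plus strand) and Cd274 at chr19:29367188-29367437 (plus strand).
Icam1: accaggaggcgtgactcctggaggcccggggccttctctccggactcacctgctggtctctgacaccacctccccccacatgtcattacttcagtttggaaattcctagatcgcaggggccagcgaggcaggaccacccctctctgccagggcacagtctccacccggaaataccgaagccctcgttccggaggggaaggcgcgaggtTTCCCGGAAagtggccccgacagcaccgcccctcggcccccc
Cd80: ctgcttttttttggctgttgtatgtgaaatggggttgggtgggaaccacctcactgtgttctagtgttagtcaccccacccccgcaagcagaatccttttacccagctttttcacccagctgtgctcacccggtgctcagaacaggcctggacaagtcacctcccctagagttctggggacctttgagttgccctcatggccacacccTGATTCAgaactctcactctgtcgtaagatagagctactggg
Cd274: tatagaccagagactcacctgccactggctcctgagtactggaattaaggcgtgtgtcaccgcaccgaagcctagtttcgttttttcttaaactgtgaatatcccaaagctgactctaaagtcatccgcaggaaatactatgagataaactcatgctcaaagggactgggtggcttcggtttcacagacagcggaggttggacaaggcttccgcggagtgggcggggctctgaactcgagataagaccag
Windows of this length were searched on both strands for exact matches only. The NF-kappa-B site was taken as GGG, A or G, 2 bases of any kind, 2 of C or T, and CC. The core of the interferon-stimulated response element was GAAA and GAAA with 2 bases of any kind between. TTCNNNGAA (the gamma-activated site, which reads alike on both strands) and TGANTCA (likewise) were searched as well. TGANTCA is a looser form of the AP-1 site, with any base at its centre in place of C or G. Of all 32851 promoters in the RefSeq table, 7.25% held the NF-kappa-B site, 2.98% the response element core, 7.02% TTCNNNGAA and 6.75% TGANTCA. Icam1 held TTCNNNGAA from 42 to 34 bases before its start, and no match lay in the Cd274 window. Cd80 held TGANTCA from 42 to 36 bases before its start, as TGATTCA, with T at the centre. Near matches were not counted, although the Icam1 window holds tggaaattcc, which differs from the NF-kappa-B pattern only in its first base. The RefSeq start of Cd80 lies 3372 bases from the start of its GENCODE gene model. Windows were also given for Cd276, Nectin2 and Cd47, and none of these held a match, which says only that these letters are not in these windows.

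Cd80 (ENSMUSG00000075122, protein-coding, chromosome 16, 38455561 to 38496335, plus strand) encodes B7-1, a costimulatory ligand best known from antigen-presenting cells. It was at 0.937, 0.775 and 0.975 CPM in the doxorubicin vehicle libraries and at 31.8, 26.7 and 29.9 CPM after doxorubicin. It was at 1.71, 1.19 and 1.56 CPM in the peroxide vehicle libraries and at 21.1, 20.98 and 16.6 CPM after peroxide. As for Icam1, all treated libraries lay above all vehicle libraries, and the doxorubicin libraries all lay above the peroxide libraries. The ratio of mean CPM was 32.9 with doxorubicin and 13.2 with peroxide. On the log2(CPM + 1) scale Cd80 rose by 4.004 ± 0.13 (SE, adjusted p = 1.79e-09 in limma) and by 3.05 ± 0.13 (adjusted p = 1.73e-08). None of its 50-base windows occurs in another transcript and no other gene model overlaps its exons. Its partner Cd86 (B7-2), which shares the receptors CD28 and CTLA-4, was at 0 CPM in 11 of 12 libraries and at 0.180 CPM in the other.

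Cd274 (ENSMUSG00000016496, protein-coding, chromosome 19, 29367455 to 29388095, plus strand) encodes PD-L1. It was at 1.58, 2.37 and 2.67 CPM in the doxorubicin vehicle libraries and at 13.5, 10.6 and 13.0 CPM after doxorubicin. In the peroxide experiment it was at 0.625, 1.001 and 1.21 CPM in the vehicle libraries and at 3.88, 5.56 and 5.23 CPM after peroxide. The 4 groups did not overlap at any step, in the order doxorubicin, peroxide, doxorubicin vehicle and peroxide vehicle. Means went from 2.21 ± 0.563 to 12.4 ± 1.58 CPM with doxorubicin and from 0.947 ± 0.298 to 4.89 ± 0.891 CPM with peroxide (SD, n = 3), ratios of 5.60 and 5.17. The increases were 2.07 ± 0.18 log2 units (SE, adjusted p = 3.50e-06 in limma) and 1.60 ± 0.18 (adjusted p = 2.42e-05). Of its windows 12.4% are shared, mainly with the antisense model AC119228.1, which never exceeded 0.125 CPM. The gene of the second PD-1 ligand, Pdcd1lg2, was at 0 CPM in 11 of 12 libraries and at 0.140 CPM in the other.

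Cd276 (ENSMUSG00000035914, protein-coding, chromosome 9, 58524298 to 58555437, minus strand) encodes B7-H3, a B7 family member expressed by many stromal cells. It was at 25.7, 24.0 and 26.2 CPM in the doxorubicin vehicle libraries and at 24.9, 28.2 and 27.8 CPM after doxorubicin, and these groups overlapped. Levels were 17.2, 17.4 and 15.03 CPM in the peroxide vehicle libraries and 28.2, 40.3 and 24.2 CPM after peroxide. Peroxide replicate 2, one of the libraries that stood apart, held the highest value, and all 3 peroxide libraries lay above their vehicle group. Cd276 rose by 0.83 ± 0.15 log2 units with peroxide (SE, adjusted p = 0.000858 in limma), and by 0.63 without the libraries that stood apart (adjusted p = 0.000489). With doxorubicin the difference was 0.09, with a 95% interval of -0.25 to 0.42 (adjusted p = 0.651). Its windows are 9.92% shared, with the gene model Gm10657, which never exceeded 0.133 CPM.

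Pvr (ENSMUSG00000040511, protein-coding, chromosome 7, 19903578 to 19921160, minus strand), the poliovirus receptor or CD155, was at 74.6, 71.6 and 84.3 CPM in the doxorubicin vehicle libraries and at 112, 93.0 and 104 CPM after doxorubicin. The peroxide vehicle libraries were at 62.4, 67.2 and 67.2 CPM and those after peroxide at 73.0, 82.8 and 76.2 CPM. Neither treated group overlapped its own vehicle group. Pvr rose by 0.41 ± 0.09 log2 units with doxorubicin (SE, adjusted p = 0.00257 in limma), a call lost with upper-quartile scaling (0.30, adjusted p = 0.110). With peroxide it rose by 0.23 ± 0.09 (adjusted p = 0.0457), just past the threshold. That call was lost in 15 of 24 alternative settings, over which the adjusted p ran from 0.0326 to 0.183. Leaving out any of 8 libraries ended it, with adjusted p from 0.0509 to 0.142, namely peroxide replicates 2 and 3, the 3 peroxide vehicle replicates, doxorubicin replicate 3 and doxorubicin vehicle replicates 1 and 2.

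Nectin2 (ENSMUSG00000062300, protein-coding, chromosome 7, 19716644 to 19750483, minus strand), or CD112, was at 6.02, 5.24 and 4.67 CPM in the doxorubicin vehicle libraries and at 8.90, 28.5 and 12.7 CPM after doxorubicin. All 3 doxorubicin libraries lay above their vehicle group, but replicate 2 lay far above the other replicates, and the group mean was 16.7 ± 10.4 CPM (SD, n = 3). Nectin2 rose by 1.34 ± 0.31 log2 units with doxorubicin (SE, adjusted p = 0.00449 in limma), and by 0.89 without replicate 2 (adjusted p = 0.00389). In the peroxide experiment it was at 5.06, 5.05 and 5.66 CPM in the vehicle libraries and at 7.40, 9.73 and 6.31 CPM after peroxide. These groups did not overlap either, but the difference of 0.48 (95% interval -0.21 to 1.17) did not pass the test (adjusted p = 0.228 in limma). The spread in that test is shared over all groups, doxorubicin included, and the adjusted p was 0.0379 without doxorubicin replicate 2 and 0.0470 when each experiment was fitted alone.

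Cd47 (ENSMUSG00000055447, protein-coding, chromosome 16, 49800533 to 49915010, plus strand) was at 109, 115 and 117 CPM in the doxorubicin vehicle libraries and at 112, 111 and 107 CPM after doxorubicin, with overlap. In the peroxide experiment it was at 86.4, 74.99 and 85.4 CPM in the vehicle libraries and at 103, 93.8 and 122 CPM after peroxide, without overlap. Cd47 rose by 0.36 ± 0.09 log2 units with peroxide (SE, adjusted p = 0.00803 in limma). With doxorubicin the difference was -0.04 (95% interval -0.25 to 0.16, adjusted p = 0.730), and its sign turned to 0.02 with median-of-ratios scaling.

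The next comparison asked whether the effects of the treatments differed, each taken against its own vehicle. Of the 8 genes, 5 passed this test. The increase was larger with doxorubicin for Icam1 and Cd80, and it was larger with peroxide for Vcam1, Cd276 and Cd47. Over all tested genes 13.5% were called in the first direction and 20.1% in the second, and the first direction made up 40.3% of calls, or 52.0% with median-of-ratios scaling. Without the 3 libraries that stood apart, 3 of the 8 genes were called in each direction. Estimates and intervals are drawn in the plot of differences by gene.

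**Figure D2:**
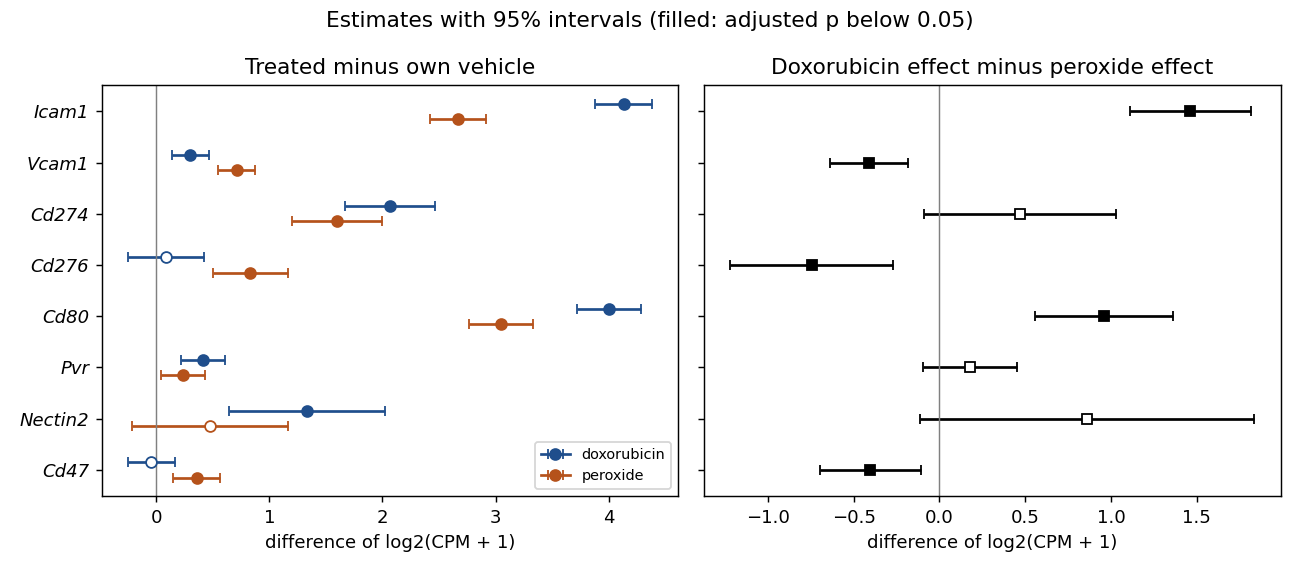
Left, difference between treated and vehicle group for each ligand gene (horizontal axis, log2(CPM + 1) units) with doxorubicin (blue) and peroxide (orange). Right, doxorubicin effect minus peroxide effect. Bars are 95% intervals and filled symbols have an adjusted p below 0.05, which the peroxide effect on Nectin2 and the doxorubicin effects on Cd276 and Cd47 did not reach.

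For Icam1 the effects differed by 1.46 ± 0.16 log2 units (SE, adjusted p = 0.000169 in limma) and for Cd80 by 0.96 ± 0.18 (adjusted p = 0.00343). Both calls held in all 23 alternatives run. For Cd276 the difference was -0.74 ± 0.22 (adjusted p = 0.0231), for Vcam1 -0.41 ± 0.10 (adjusted p = 0.0134) and for Cd47 -0.40 ± 0.13 (adjusted p = 0.0390). The Vcam1 call was lost with median-of-ratios scaling (adjusted p = 0.0515), and that of Cd276 without a filter on low values (0.0506) or without doxorubicin vehicle replicate 3 (0.0513). The Cd47 call was lost in 12 of 23 alternatives, 9 of them the omission of a single library, with adjusted p from 0.0511 to 0.0921. These libraries were doxorubicin replicates 2 and 3, the 3 doxorubicin vehicle replicates, peroxide replicates 1 and 3 and peroxide vehicle replicates 1 and 2, of which doxorubicin vehicle replicate 3 is among those that stood apart.

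For the other 3 genes no difference between the effects was called. It was 0.47 for Cd274 (95% interval -0.09 to 1.03, adjusted p = 0.169 in limma), 0.18 for Pvr (-0.10 to 0.45, adjusted p = 0.281) and 0.86 for Nectin2 (-0.11 to 1.84, adjusted p = 0.151). These intervals are wide enough that the effects cannot be called alike. The Nectin2 difference was called without doxorubicin replicate 1 (1.20, adjusted p = 0.0277) and without the 3 libraries that stood apart (1.28, adjusted p = 0.0225). With array weights all 3 were called, at 0.78 for Cd274 (adjusted p = 0.0108), 0.29 for Pvr (adjusted p = 0.0159) and 0.74 for Nectin2 (adjusted p = 0.0455). The Cd274 value ran from 0.10 to 0.78 over its alternatives.

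The vehicle groups, which differ in day and handling, were compared with each other because each effect rests on one of them. Relative to the peroxide vehicle group, 4 of the 8 genes were higher in the doxorubicin vehicle group and 1 was lower, against 15.1% and 12.9% of all tested genes. The higher genes were Cd274 (0.72 ± 0.18 log2 units, SE, adjusted p = 0.0126 in limma), Cd276 (0.58 ± 0.15, adjusted p = 0.0151), Cd47 (0.46 ± 0.09, adjusted p = 0.00415) and Vcam1 (0.32 ± 0.07, adjusted p = 0.00771). Cd80 was lower by this test (-0.39 ± 0.13, adjusted p = 0.0449), a call lost in 14 of 23 alternatives, with adjusted p from 0.0120 to 0.167, and without the 3 libraries that stood apart 4 genes were higher and 0 lower. Of single libraries, doxorubicin replicate 3, peroxide replicate 1, any doxorubicin vehicle replicate and peroxide vehicle replicates 1 and 3 each ended it when left out. The Cd274 call was lost without doxorubicin vehicle replicate 3 (adjusted p = 0.0542) or peroxide vehicle replicate 1 (0.0558). That of Cd276 was lost without doxorubicin vehicle replicate 3 (0.0507) or peroxide vehicle replicate 3 (0.0528). No difference between the vehicle groups was called for Icam1 (-0.23, adjusted p = 0.148 in limma), Pvr (0.22, adjusted p = 0.0816) or Nectin2 (0.01, adjusted p = 0.990). Icam1, at 3 and 13 estimated reads in these groups, was called lower with a pseudocount of 0.1 CPM (-1.28, adjusted p = 0.0128) and with limma voom on estimated reads (-2.45, adjusted p = 0.0289), and Pvr was called higher with array weights (0.17, adjusted p = 0.0419).

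Doxorubicin-treated cells were then set directly against peroxide-treated cells, which differ also in day and experiment, so treatment and experiment cannot be told apart here. Icam1 (1.23 ± 0.11 log2 units, SE, adjusted p = 6.49e-05 in limma), Cd274 (1.19 ± 0.18, adjusted p = 0.00126), Cd80 (0.57 ± 0.13, adjusted p = 0.00992) and Pvr (0.40 ± 0.09, adjusted p = 0.00862) were higher after doxorubicin, and 0 of the 8 genes were lower (5 and 0 without the libraries that stood apart). Over all tested genes 9.50% were higher and 18.0% lower, and the higher share of calls was 34.6%, or 51.8% with median-of-ratios scaling. The Pvr call was lost with upper-quartile scaling (0.34, adjusted p = 0.104). For the 3 genes whose effect was larger with peroxide, the treated groups overlapped, and the direct difference was -0.16 for Cd276 (95% interval -0.50 to 0.17), -0.09 for Vcam1 (-0.25 to 0.08) and 0.06 for Cd47 (-0.15 to 0.27). For these 3 genes the vehicle groups did not overlap, the doxorubicin vehicle libraries all lying above the peroxide vehicle libraries. For Icam1 and Cd80 neither the treated groups nor the vehicle groups overlapped. The doxorubicin group lay above the peroxide group among treated libraries and below it among vehicle libraries. This vehicle order rests on very few reads for Icam1, as replicate 1 of each vehicle group held 3 estimated reads. For Cd80 the difference of 0.96 between the effects is made up of 0.57 between the treated groups and 0.39 between the vehicle groups. For Icam1 the 1.46 is made up of 1.23 and 0.23, of which the 0.23 was not called (adjusted p = 0.148 in limma). This split for Icam1 depends on the pseudocount. With 0.1 CPM the difference between the effects was 2.61, with 1.33 between the treated groups and -1.28 between the vehicle groups. That vehicle difference was called (adjusted p = 0.0128 in limma). Nectin2 was at 0.87 (adjusted p = 0.0597), and it passed the test without doxorubicin replicate 1 (1.21, adjusted p = 0.00929) or without the libraries that stood apart (1.36, adjusted p = 0.00422).

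Levels can be compared between genes only per length, and mean CPM was therefore divided by the length of each gene's merged exons in kb. Vcam1 was highest in every group, from 41.6 ± 3.61 CPM per kb in the peroxide vehicle group to 67.98 ± 1.21 after peroxide (SD, n = 3). Cd47 and Pvr followed, at 13.1 and 10.7 CPM per kb in the peroxide vehicle group, and they changed places when the longest transcript was used as the length. Cd276 was at 4.52 to 8.45 CPM per kb. Among the remaining genes the order changed with treatment. In the doxorubicin vehicle group Nectin2 (1.52 CPM per kb), Cd274 (0.609), Cd80 (0.242) and Icam1 (0.0113) came last, and after doxorubicin Cd80 reached 7.96 CPM per kb, next to Cd276 at 7.37, with Nectin2 at 4.78, Icam1 at 3.99 and Cd274 at 3.41. The spread of Nectin2 after doxorubicin (2.97 CPM per kb, SD, n = 3) spans its neighbours in that order. Cd274 had the lowest mean per length in both treated groups and Icam1 in both vehicle groups, with either measure of length.

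**Figure D3:**
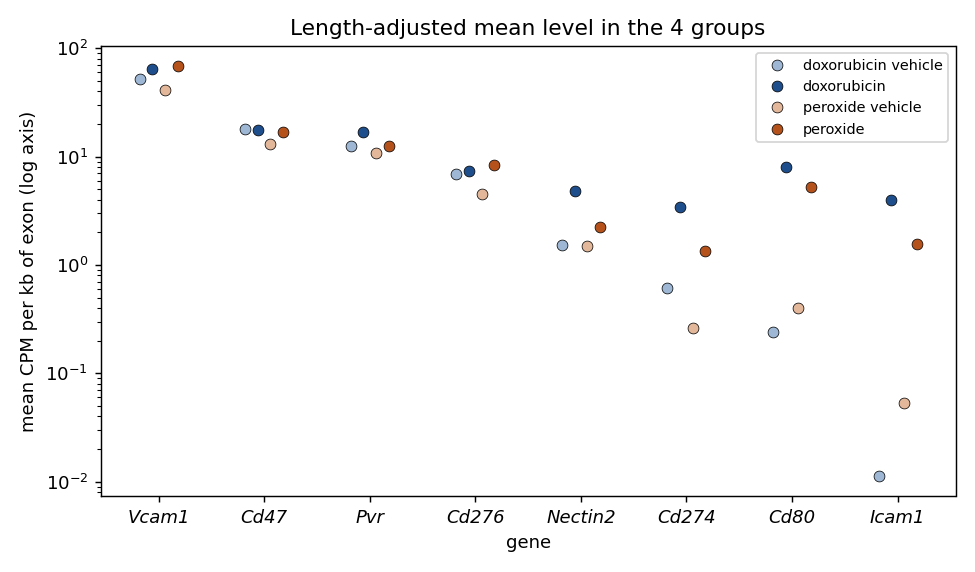
Mean level per kb of merged exon (vertical log axis, CPM per kb) for the 8 ligand genes in the 4 groups. Genes are in descending order of their mean in the doxorubicin vehicle group. Points are means of 3 libraries. Vcam1 leads in every group, and Cd80 and Icam1 show the widest gaps between treated and vehicle groups.

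For each gene the 2 tested genes of most similar profile were found by the root-mean-square difference between centred log2(CPM + 1) profiles over the 12 libraries, among 9290 genes of at least 5 CPM on average. Icam1 was nearest to Ccl11, the chemokine eotaxin-1 (0.21 log2 units, against a spread of 1.76 in Icam1 itself), and to Slfn2, a Schlafen family gene (0.22). Cd80 was nearest to Shpk, a kinase of sedoheptulose (0.19, against a spread of 1.78), and to Tnfrsf26, a TNF receptor family gene (0.27). Cd274 was nearest to Parp14, a mono-ADP-ribosyltransferase (0.23, against 1.06), and to Ube2l6, the ISG15-conjugating enzyme (0.25). The nearest genes were Arsa and Rusc1 for Cd276, Smarca2 and Bbs4 for Vcam1, Tnfaip2 and Mpp1 for Pvr, Slc48a1 and Mrc2 for Nectin2, and Elf1 and Resf1 for Cd47. These are descriptions over 12 libraries in 4 groups, and no test was made of them.

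Other genes listed with ligands of the same kinds were mixed in direction. Besides ligands, these lists hold linkers of surface proteins to actin (such as Ezr and Rdx), tetraspanins and an ectoenzyme. Of 64 listed genes besides the 8, 36 were tested, and 14 were higher and 6 lower after doxorubicin (median 0.17) and also 14 higher and 6 lower after peroxide (median 0.08). Of these, 8 were higher after both treatments, 3 were lower after both and 1, Cd1d1, moved in opposite directions. Rdx, not itself a ligand gene, is among the 3, and Ezr is among the 6 lower after peroxide. Over all tested genes 22.1% were higher and 27.8% lower after doxorubicin, and 27.3% higher and 23.4% lower after peroxide. Of all tested genes 13.0% were higher after both, 13.5% lower after both and 3.60% moved in opposite directions. Both treatment comparisons are drawn gene by gene in the scatter plot.

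**Figure D4:**
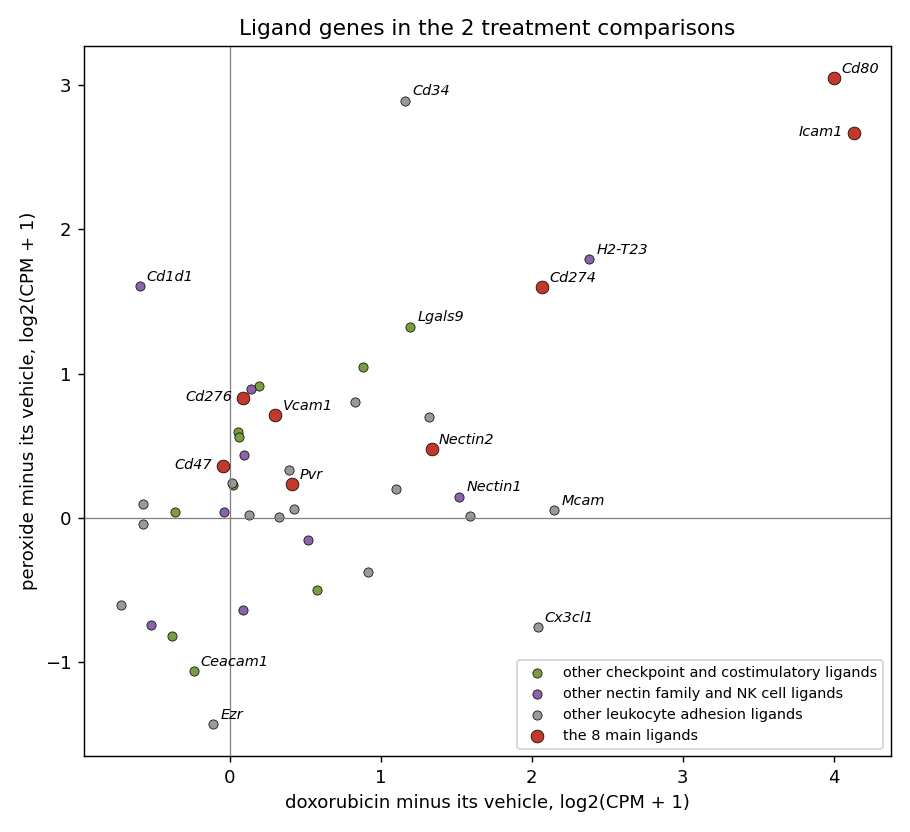
Difference from the vehicle group with doxorubicin (horizontal axis) and with peroxide (vertical axis), both in log2(CPM + 1) units. Shown are the 8 ligand genes (red) and the 36 other tested genes of the ligand lists, by list. Cd80 and Icam1 lie at the far upper right, while Cd1d1 and Cx3cl1 lie in quadrants where the differences have opposite signs.

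Among the other checkpoint and costimulatory ligands, 2 of 10 tested genes were higher and 1 lower after doxorubicin, and 5 were higher and 2 lower after peroxide. Lgals9, which encodes the TIM-3 ligand galectin-9, rose from 265 ± 22.5 to 607 ± 42.2 CPM with doxorubicin (1.19 log2 units, adjusted p = 1.07e-05 in limma) and from 201 ± 9.74 to 510 ± 99.9 CPM with peroxide (1.32, adjusted p = 4.26e-06, SD, n = 3). Vsir, which encodes the inhibitory ligand VISTA, rose by 0.88 and 1.05. Lgals3, which encodes galectin-3, fell by 0.38 with doxorubicin and by 0.82 with peroxide. Ceacam1 fell by 1.06 with peroxide and was at -0.24 with doxorubicin (adjusted p = 0.417).

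Among the other nectins and ligands of natural killer and related cells, 3 of 9 tested genes were higher and 2 lower after each treatment. H2-T23, which encodes Qa-1, a ligand of the inhibitory receptor NKG2A, rose by 2.38 with doxorubicin and 1.79 with peroxide. It belongs to a family of close copies, so its counts are uncertain. Cd1d1, which presents lipids to natural killer T cells, fell from 11.98 ± 0.509 to 7.58 ± 0.208 CPM with doxorubicin and rose from 7.01 ± 1.15 to 23.2 ± 0.575 CPM with peroxide (SD, n = 3). Its effects were -0.60 (adjusted p = 0.000990 in limma) and 1.61 (adjusted p = 5.30e-07), and the difference between them passed the test (adjusted p = 9.72e-06). Nectin3 fell by 0.52 and 0.74. Ulbp1, a ligand of the activating receptor NKG2D, fell by 0.64 with peroxide and was at 0.08 with doxorubicin. Nectin1, named here after its values were seen, rose by 1.52 with doxorubicin and was at 0.15 with peroxide, and its level was 7.90 ± 0.287 CPM in the doxorubicin vehicle group against 17.1 ± 0.140 in the peroxide vehicle group (SD, n = 3).

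Among other adhesion ligands of leukocytes and proteins listed with them, 9 of 17 tested genes were higher and 3 lower after doxorubicin. After peroxide 6 were higher and 2 lower. Cd34, a sialomucin, rose by 1.16 with doxorubicin and by 2.89 with peroxide. Mcam, which encodes CD146, rose by 2.15 with doxorubicin and was at 0.05 with peroxide, but its vehicle groups stood at 0.475 and 5.55 CPM. Ezr fell by 1.43 with peroxide and was at -0.11 with doxorubicin, and Rdx fell by 0.72 and 0.61, both encoding linkers of surface proteins to actin. The close relatives of Icam1 in this list were barely detected, with Icam2, Icam4 and Icam5 below the level needed for testing and Icam4 at no more than 0.718 CPM.

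Of 10 tested genes in a list for the handling of the 8 ligands, 4 were higher and 2 lower after doxorubicin and 3 were higher and 3 lower after peroxide. The list is wider than genes that stabilise, cleave or bind these ligands, and its counts were not split by role. Thbs1, whose product thrombospondin-1 binds CD47, rose from 555 ± 31.3 to 5341 ± 582 CPM with doxorubicin and from 1267 ± 46.9 to 5535 ± 309 CPM with peroxide (SD, n = 3). Its relative Thbs2 rose by 1.09 and 1.94. Cspg4 fell by 1.90 with peroxide and was at -0.33 with doxorubicin. Adam17, a protease that sheds surface proteins, fell by 0.40 and 0.26. Cmtm6, which encodes a protein that keeps PD-L1 at the cell surface and which is named after its values were seen, rose by 1.17 with doxorubicin (adjusted p = 0.0176 in limma), with a spread of 14.5, 48.5 and 27.4 CPM, and was at -0.08 with peroxide.

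As background, interferon and NF-kappa-B signalling are known inducers of Icam1 and Cd274. Of 22 tested genes for this signalling, 13 were higher and 2 lower after doxorubicin and 11 were higher and 1 lower after peroxide. The shares over all tested genes were 22.1% higher and 27.8% lower after doxorubicin, and 27.3% higher and 23.4% lower after peroxide. Whether these signalling genes had a part in the increases of Icam1 and Cd274 was not tested. Stat2 rose by 3.46 with doxorubicin and 1.64 with peroxide, and Irf9 by 1.83 and 2.57, both subunits of the factor that carries type I interferon signals. Ifngr1, a chain of the interferon-gamma receptor, rose by 0.50 with doxorubicin and fell by 0.83 with peroxide. Jak2 fell by 0.56 with doxorubicin and was at 0.01 with peroxide.

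Genes in a list of receptors on lymphocytes and other leukocytes were mostly at low levels. The list is wider than the receptors of the ligands described here. Trem2, Klrk1 and Cd2 are in it and are not taken here as receptors of those ligands. Of the 16 listed genes, 12 stayed below 1 CPM in every library and the other 4 were tested. Among the 12 was Itga4, the VLA-4 chain that binds VCAM-1, at up to 0.340 CPM. Of the 12, 2 (Ctla4 and Cd226) were at 0 in all libraries, whereas Itgb7 had reads in all 12 libraries and Cd28 reached 0.935 CPM. Sirpa, which encodes the receptor of CD47, rose by 0.67 with peroxide and was at 0.15 with doxorubicin. Itgal, the LFA-1 chain that binds ICAM-1, fell from 3.16 ± 0.404 to 0.272 ± 0.0661 CPM with doxorubicin and from 3.51 ± 0.349 to 0.691 ± 0.382 CPM with peroxide (SD, n = 3), opposite to Icam1. Itgb2 and Trem2 rose by 1.03 and 1.55 with peroxide and were at 0.54 and 0.02 with doxorubicin.

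Icam1, Vcam1, Cd80 and Cd274 are also expressed by leukocytes or endothelium, and markers of those cells were measured beside them. Of 18 leukocyte markers 4 were tested, and the summed level of the list was 28.4 to 34.5 CPM after doxorubicin against 11.9 to 20.5 in its vehicle group, and 24.5 to 28.9 after peroxide against 17.3 to 18.1. Of the 4 tested markers 3 were higher and 0 lower after doxorubicin, and 2 were higher and 1 lower after peroxide. Lyz2 rose with both treatments (2.01 and 2.35 log2 units), as did Cd68 (0.77 and 0.68). Csf1r rose with doxorubicin (0.58) and fell with peroxide (-0.57), while Ptprc was at 0 in 8 libraries and Cd3g in 12. Among untested markers, Itgam averaged 0.184 CPM after doxorubicin and 0.373 after peroxide, against 0 in both vehicle groups. Laptm5 averaged 0.154 CPM after doxorubicin against 0.427 in its vehicle group, and 0.334 after peroxide against 0.0190. Of 10 endothelial markers 2 were tested, and the list summed to 35.9 to 46.5 CPM after doxorubicin against 13.9 to 16.9, and to 23.3 to 29.4 after peroxide against 6.72 to 11.4. Tek rose with both treatments (1.35 and 1.65) and Flt1 was not called with either, while Cdh5 and Cldn5 were at 0 in 11 and 12 libraries. Of the untested ones, Pecam1 averaged 0.845 CPM after doxorubicin against 0.130 in its vehicle group, and 0.353 after peroxide against 0.147. In the same order, Vwf averaged 0.554 against 0.166 and 0.583 against 0.128, and Kdr 0.462 against 0.455 and 0.237 against 0.410. Both sums were higher in the treated groups, as were Icam1 and Cd80, and their part in those results was not tested. Of 11 epithelial markers, Krt19 alone was tested and it fell with both treatments (-1.08 and -2.31), while Epcam never exceeded 0.0935 CPM. Of 8 adipocyte markers 5 were tested and 1 was higher and 4 lower after doxorubicin, 2 higher and 3 lower after peroxide, and of 8 pericyte and Schwann cell markers 3 were tested and 2 were higher after each treatment.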

How the data were processed

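The deposited table gives CPM, made by the authors from RNA sequenced on a NovaSeq instrument, per the labels' protocols. Per the submitters' processing notes, bcl2fastq, DRAGEN and mm10 were used, with no version or role named. How reads were counted, whether by strand and against which annotation, is not given in the sources used here. Of 55774 lines 287 repeated a gene and were dropped, and 0 columns of values were left unmapped.

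Depth was estimated from the CPM of a single read. Among values of at most 20 reads, the whole ones made up 74.7 to 79.8% (tolerance 0.001 read), so the authors' counts were estimates and no count test was run as the main test. In CPM, 3 reads were worth 0.0798 to 0.173. Intervals and this floor cover counting error only.

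The 13280 genes that reached 1 CPM in 3 or more libraries were tested. limma 3.58.1 (R 4.3.3) was fitted with its trend option to log2(CPM + 1) of all 12 libraries in 4 groups (8 residual degrees of freedom, and prior ones with a median of 3.07). All tests were two-sided with a threshold of 0.05 after Benjamini-Hochberg adjustment. The script was tested on simulated data. GENCODE mouse release M21 held 99.4% of the gene identifiers and gave positions and exon lengths. RefSeq promoters matched 6 of the 8 genes. Tables and figures used Python 3.11.15 with pandas 2.3.3 and matplotlib 3.10.9.

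All 8 genes are named in every comparison. From each further list, up to 4 genes are named, the 2 largest increases and 2 largest decreases among those called against either vehicle. Others named from a list (Pdcd1lg2, Cd86, Nectin1, Cx3cl1, Icam2, Icam4, Icam5, Cmtm6, Itga4, Itgb7, Cd28, Ctla4, Cd226, Sirpa and single markers) were chosen after their values were seen. The genes and lists were chosen with earlier results of these data known. Hhla2 and Raet1a were not analysed here. The 25 alternatives covered pseudocounts, filters, scalings, model settings, a replicate block, each library left out in turn, and the 3 libraries that stood apart left out.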

Additional observations from a re-analysis of the deposited data

Results flagged for a closer look

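In 5 of the 8 ligand genes the effects of the treatments differed by a test of the difference itself (limma, adjusted over all tested genes, 3 libraries per group). The doxorubicin effect exceeded the peroxide effect by 1.46 log2 units for Icam1 (adjusted p = 0.000169) and by 0.96 for Cd80 (adjusted p = 0.00343). It was smaller than the peroxide effect for Cd276 (-0.74, adjusted p = 0.0231), Vcam1 (-0.41, adjusted p = 0.0134) and Cd47 (-0.40, adjusted p = 0.0390). Over all tested genes 13.5% had a larger effect with doxorubicin and 20.1% with peroxide by this test. The Cd47 call was lost in 12 of 23 alternatives, that of Cd276 in 2 and that of Vcam1 in 1, all at the same threshold. For Cd276, Vcam1 and Cd47 the treated groups themselves were not called different (-0.16, -0.09 and 0.06 log2 units). The doxorubicin vehicle group was called higher than the peroxide vehicle group (0.58, 0.32 and 0.46). The experiments differ in day and handling as well as agent, and these cannot be told apart here.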

How the results depend on the processing

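Over 976 recomputed values of 40 results for the 8 genes, 894 kept their direction and side of the threshold, 58 lost the call, 14 gained it and 10 changed sign. The calls for Icam1, Cd80, Cd274 and Nectin2 with doxorubicin, and for Icam1, Cd80, Cd274, Cd276, Vcam1 and Cd47 with peroxide, held in all alternatives at the 0.05 threshold. Differences near 0 that were never called changed sign as follows. With upper-quartile scaling Cd276 with doxorubicin was -0.023 and Cd47 between the treated groups -0.0051, and with median-of-ratios scaling Cd47 with doxorubicin was 0.016. Without the 3 libraries that stood apart Cd276 between the treated groups was 0.097 and Cd47 -0.040. When single libraries were left out, Cd276 between the treated groups ran from -0.31 to 0.042 and Cd47 from -0.026 to 0.16, both turning without peroxide replicate 2. Between the vehicle groups Nectin2 ran from -0.072 to 0.082, below 0 without doxorubicin vehicle replicate 1 or peroxide vehicle replicates 1 or 2.

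Of the 8 genes, 2 had a larger effect with doxorubicin, and 5 with array weights. The 3 with a larger effect with peroxide became 1 with no filter or median-of-ratios scaling, 0 at a threshold of 0.01, and 1 to 3 when single libraries were left out. The 4 genes higher in the doxorubicin vehicle group became 2 at a threshold of 0.01, and 2 to 4 without single libraries. The 1 gene lower there became 2 with a pseudocount of 0.1 CPM, and 0 with a pseudocount of 2 CPM, no filter, either scaling, the replicate block, the 3 libraries left out or a threshold of 0.01, and 0 to 1 without single libraries.

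Counts over all tested genes moved as well. Array weights raised the larger doxorubicin effects from 1796 to 2832, the lower vehicle calls from 1718 to 2701, and the treated-group calls from 1262 to 2486 higher and from 2384 to 3758 lower. Without the 3 libraries the 1262 became 2237, and with median-of-ratios scaling the 2384 became 1505. Without doxorubicin replicate 3, doxorubicin vehicle replicate 3 or peroxide vehicle replicate 1 the 1796 became 1098, 1190 or 1142. Without doxorubicin replicates 2 or 3 the 1262 became 500 or 519, and without replicate 2 the 2384 became 1433. At a threshold of 0.01 the effects differed in 623 and 1318 genes (from 1796 and 2665), the vehicle groups in 1124 and 918 (from 2001 and 1718) and the treated groups in 374 and 1005. Upper-quartile scaling moved the median of all genes from -0.03 to -0.13 with doxorubicin and from -0.07 to -0.18 for the difference between effects. The causes were not tested.

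Replicate numbers gave no clear pairing of the libraries. Deviations of same-numbered treated and vehicle libraries correlated at -0.31, 0.19 and -0.28 for doxorubicin and 0.14, 0.03 and -0.24 for peroxide. Across the experiments they correlated at 0.24, -0.03 and 0.39 for vehicle libraries and at -0.20, -0.09 and 0.23 for treated ones. With 3 libraries per group these values can neither show nor exclude a pairing. With the replicate block 38 of 40 results kept their call, and Pvr with peroxide (adjusted p = 0.0688) and Cd80 between vehicle groups (adjusted p = 0.0532) did not.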
